A study of Mus musculus with 5 samples.

Results

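Caveolae are small flask-shaped pits of the plasma membrane, and the genes of their coat and neck were examined in primary mouse adipocytes. The set held 8 genes, chosen by name among the 24330 gene symbols of the expression table. They were the caveolins Cav1, Cav2 and Cav3, the cavins Ptrf, Sdpr and Prkcdbp (cavins 1, 2 and 3 in current naming), and the neck proteins Ehd2 and Pacsin2. Each had 1 row in the table. The samples were 3 RNA-seq libraries, replicates 1, 2 and 3, of adipocytes from the epididymal fat of wild-type C57BL/6 mice aged 17 weeks, with no treatment given in the labels. The series also lists 2 bisulfite libraries, 1 of the wild type and 1 of an adipocyte-specific Dnmt1 knockout (Dnmt1 AKO), and these were not analysed here. The libraries thus formed 1 group with no contrast, and the question asked of them was how much of each caveola gene the preparation held and how far the libraries differed.

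Caveolin proteins sit in the membrane as hairpins and bind cholesterol, and cavins attach to them from the cytoplasm as a coat that helps to shape the pit. EHD2, an ATPase, gathers at the neck and holds caveolae at the surface, and PACSIN2 is an F-BAR protein that bends membrane. Caveolae are especially dense in adipocytes and in capillary endothelium, and loss of caveolin-1 or cavin-1 causes lipodystrophy in mice and in people.

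Expression values were FPKM, read fragments divided by transcript length and by library size, so that levels of different genes can be set side by side within a library. They came without read counts, so the depth of the libraries is unknown and counting error could not be worked out. Summed over all rows, the libraries held 488721 to 524092 FPKM. The labels do not state whether separate animals were used, so SDs and p-values cover only the spread among these 3 samples, possibly of technical origin. The libraries differed in their cell type markers, and replicate 1 stood farthest out for those of adipocytes and endothelium. The summed level of 9 adipocyte markers, all detected, was 12334 FPKM in replicate 1 against 3799 and 4078 in replicates 2 and 3. That of 11 endothelial markers, all detected, was 1348 against 2915 and 2926. Macrophage markers, 7 of 7 detected, summed to 1897 to 2480 FPKM, and 8 of 9 pericyte and smooth muscle markers, 7 of 7 preadipocyte and fibroblast markers and 6 of 6 mesothelial markers were detected too. For these last 3 lists the summed level was lowest in replicate 1 and highest in replicate 3. Markers of several cell types were thus present beside those of adipocytes. In such bulk samples fewer cells of a type and less RNA per cell cannot be told apart.

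Of the 8 genes, 7 reached FPKM 1 in every library, the level taken as detected, as did 45.5% of all genes. All of these 7 also reached FPKM 10, which 20.7% of all genes did, and 6 reached FPKM 100, which 2.33% did. Cav3 was the exception and was listed at 0 in every library, as were 22.4% of all genes. Together the 8 genes held 0.413%, 0.483% and 0.468% of the summed FPKM in replicates 1, 2 and 3. The order of mean levels was Cav1, Ptrf, Sdpr, Ehd2, Prkcdbp, Cav2, Pacsin2 and Cav3.

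Cav1, which encodes the caveolin that forms the pits outside striated muscle, was the highest of the set. It lies on chromosome 6 from 17306335 to 17341328 and has 2 transcription starts in the table. It stood at 823, 775 and 756 FPKM in replicates 1, 2 and 3, a mean of 785 ± 34.9 (SD, n = 3), and ranked 100 among all genes by mean level. The libraries were within 1.09-fold of each other. Cav2 (chromosome 6, 17281185 to 17289130) encodes a partner that depends on caveolin-1 to reach the cell surface. It stood at 143, 142 and 108 FPKM, a mean of 131 ± 19.7, with replicate 3 lowest. Cav1 exceeded Cav2 6.02-fold, a log2 ratio of 2.59 ± 0.184, in 3 of 3 libraries (exact two-sided sign-flip permutation p = 0.25, n = 3). Cav1 made up 85.7% ± 1.53 of the summed FPKM of the caveolins and Cav2 the remaining 14.3%. The muscle caveolin Cav3 (chromosome 6, 112459505 to 112472872) was listed at 0 throughout, so no ratio to it is given. Of 8 skeletal muscle markers only Acta1 and Mylpf were detected, the list summed to 9.04 to 16.7 FPKM, and Myh4 and Myog were listed at 0 in every library.

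Cav1 and Cav2 are neighbours on chromosome 6, with 17204 bases between them, and no other row of the table lies in that gap. The rows on their outer sides were lower. D830026I12Rik, before Cav2, stood at 2.40 ± 0.510 FPKM. The receptor tyrosine kinase gene Met, 122628 bases after Cav1, stood at 6.87, 1.49 and 2.01 FPKM. Cav1 and Cav2 were thus above both outer rows in all 3 libraries. Only 2.24% of all genes had a mean above that of Cav2, and the median over all genes was 0.917 FPKM. Most genes would thus be lower neighbours. Cav3 also lies on chromosome 6 but far off, 811 bases before the oxytocin receptor gene Oxtr, which stood at 3.40 ± 1.58 FPKM. Higher neighbours lay beside other genes of the set, such as Gltscr2, 2878 bases before Ehd2, at 145 ± 17.8 FPKM.

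**Figure D1:**
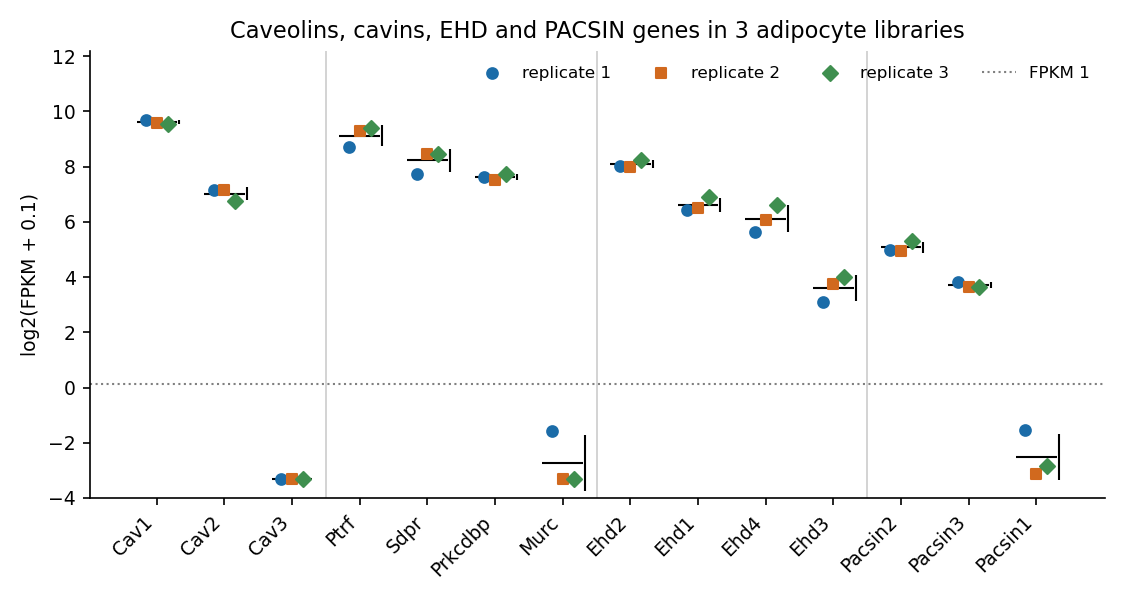
Level of the 8 genes and their 6 paralogs on the log2(FPKM + 0.1) scale in each of the 3 libraries, grouped by family; each point is 1 library, horizontal bars are means, and the vertical bar beside each gene spans 1 SD either side of the mean. Cav1 is the highest at 756 to 823 FPKM, 7 of the 8 genes lie above the dotted line at FPKM 1, and Cav3, Murc and Pacsin1 lie below it.

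All 3 cavins of the set were detected, and their order was Ptrf, Sdpr and Prkcdbp in every library. Ptrf (chromosome 11, 100956736 to 100970617), whose product cavin-1 is required for caveolae to form, stood at 416, 621 and 677 FPKM in replicates 1, 2 and 3, a mean of 571 ± 138, with replicate 1 lowest. Sdpr (chromosome 1, 51289126 to 51302960), which encodes the phosphatidylserine-binding cavin-2, had its levels at 215, 355 and 354 FPKM, a mean of 308 ± 80.8, again with replicate 1 lowest. Prkcdbp (chromosome 7, 105480616 to 105482197), which encodes the protein kinase C delta-binding cavin-3, stood at 196, 182 and 212 FPKM, a mean of 197 ± 15.0. These levels of Prkcdbp varied little and did not share the low value in replicate 1.

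Ptrf exceeded Sdpr 1.86-fold, with log2 ratios of 0.95, 0.81 and 0.94, a mean of 0.90 ± 0.0804. This ratio varied less than either gene did. Ptrf exceeded Prkcdbp by 1.51 ± 0.371 log2 units and Sdpr exceeded Prkcdbp by 0.61 ± 0.431. The latter ratio was 0.13 in replicate 1 against 0.96 and 0.74 in replicates 2 and 3, so that Sdpr and Prkcdbp were nearly equal in replicate 1. The muscle cavin Murc, also called cavin-4, had 0.236 FPKM in replicate 1 and was listed at 0 in replicates 2 and 3. Of the summed FPKM of the cavins, Ptrf made up 52.8% ± 2.20, Sdpr 28.4% ± 2.35 and Prkcdbp 18.8% ± 4.28. The 9330175M20Rik row overlaps Sdpr and reached 0.0231 FPKM in replicate 1 only. The labels do not say whether strand was kept, so reads of the overlapping pair cannot be told apart.

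Cav1 exceeded Ptrf in 3 of 3 libraries, but by unequal amounts. The log2 ratio was 0.98 in replicate 1, 0.32 in replicate 2 and 0.16 in replicate 3, a mean of 0.49 ± 0.438 that was about as large as its SD (exact two-sided sign-flip permutation p = 0.25, n = 3). Without replicate 1 the mean was 0.24. Summed over each family, caveolins stood at 967, 917 and 864 FPKM and cavins at 827, 1158 and 1244 FPKM in replicates 1, 2 and 3. The ratio of caveolins to cavins was accordingly 1.17, 0.792 and 0.695, so the caveolin sum was the larger in replicate 1 and the smaller in replicates 2 and 3.

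**Figure D2:**
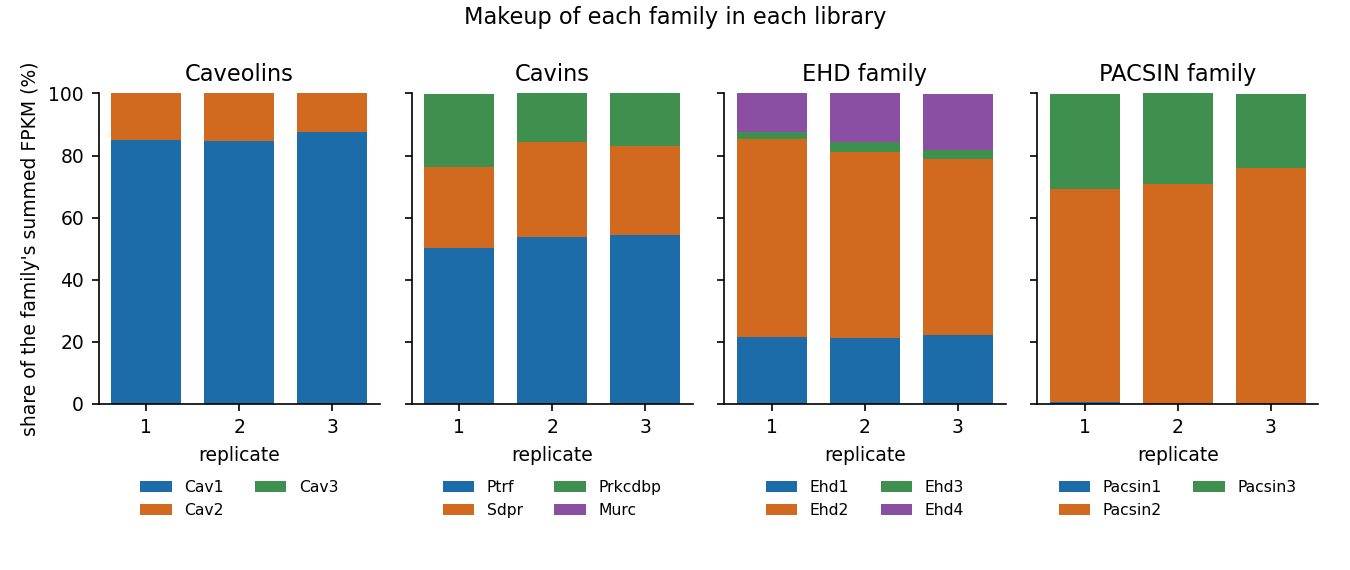
Share of each gene in the summed FPKM of its family, in percent, as stacked bars for each of the 3 libraries; colours stand for genes. Cav1 holds 85.7% of the caveolins on average, Ptrf 52.8% of the cavins, Ehd2 60.1% of the EHD family and Pacsin2 71.8% of the PACSIN family, and Cav3 and Murc are too low to see.

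Among the neck proteins, Ehd2 was about as high as Sdpr and Pacsin2 was far lower. For Ehd2 (chromosome 7, 15948987 to 15967535) the libraries gave 258, 253 and 305 FPKM, with a mean of 272 ± 28.3. For Pacsin2 (chromosome 15, 83375607 to 83464606) they gave 31.3, 30.4 and 39.9 FPKM, a mean of 33.9 ± 5.22. Both were highest in replicate 3, and their ratio was nearly constant. Ehd2 exceeded Pacsin2 8.04-fold, by 3.01 ± 0.0674 log2 units in 3 of 3 libraries. Cav1 exceeded Ehd2 2.89-fold, by 1.53 ± 0.195 log2 units.

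Both neck genes led their own families. Ehd2 made up 60.1% ± 3.78 of the summed FPKM of the 4 EHD genes. Its paralogs act mainly in endosomal recycling. Ehd1 stood at 86.3, 90.4 and 120 FPKM, and Ehd2 exceeded it 2.77-fold, by 1.47 ± 0.119 log2 units. Ehd4 stood at 50.1, 66.5 and 98.6 FPKM and was 1.97 ± 0.370 log2 units below Ehd2. Ehd3, at 12.5 ± 3.74 FPKM, was the lowest of the family and 4.47 ± 0.381 log2 units below Ehd2. The 3 EHD paralogs had their lowest value in replicate 1 and their highest in replicate 3, as did 26.3% of all detected genes.

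Pacsin2 made up 71.8% ± 3.81 of the summed FPKM of the PACSIN genes. It exceeded Pacsin3, at 13.0 ± 0.917 FPKM, by 1.36 ± 0.268 log2 units. Pacsin1, best known from neurons, stood at 0.241, 0.0153 and 0.0390 FPKM, under the pseudocount of 0.1 in replicates 2 and 3, so no ratio to it is given. Of the 6 paralogs, 4 were detected in every library, all but Murc and Pacsin1, against 45.5% of all genes.

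The exact two-sided sign-flip test gave p = 0.25 for each of the 14 gene pairs compared within libraries, and 0.25 after Benjamini-Hochberg adjustment over the 14 pairs. With 3 libraries this is the smallest p that the test can give, so no ratio could pass 0.05. All 14 ratios had 1 sign in 3 of 3 libraries, and 3 of them were to genes that were not detected. The pairs were chosen with earlier results of these data known. The share of other gene pairs with 1 sign was not computed, so this count only describes the pairs. Of the neighbours in the order of mean levels, Sdpr and Ehd2 did not differ beyond their spread. Sdpr was above Ehd2 in 2 of 3 libraries, by a mean of 0.15 ± 0.381 log2 units, and Ehd2 was above Sdpr in replicate 1. The other neighbours kept their order in 3 of 3 libraries and their ranges did not overlap, though Cav1 and Ptrf differed by little more than 1 SD.

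Across the 3 libraries 5 of the 7 detected genes stayed within 1.5-fold from the lowest to the highest library, as did 63.2% of all detected genes and 71.8% of genes at FPKM 100 or more in every library. The share among the 7 was thus close to the background. The ratio of the highest to the lowest library was 1.09 for Cav1, 1.16 for Prkcdbp, 1.20 for Ehd2, 1.31 for Pacsin2 and 1.32 for Cav2. It was 1.63 for Ptrf and 1.65 for Sdpr, and without replicate 1 it was 1.09 and 1.00 for this pair. Over all 3 libraries the median over detected genes was 1.37, and it was not computed without replicate 1.

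The 2 cavins that varied most were lowest in replicate 1, where 34.5% of detected genes were lowest. Relative to its own mean over libraries, on the log2(FPKM + 0.1) scale, Ptrf deviated by -0.43, 0.15 and 0.28 in replicates 1, 2 and 3, and Sdpr by -0.48, 0.24 and 0.24. The median deviation of the 11 endothelial markers was -0.70, 0.34 and 0.36, with all 11 lowest in replicate 1. The median deviations of the mural, fibroblast and mesothelial lists were likewise below 0 in replicate 1, at -0.71, -0.40 and -0.94. Pericyte and smooth muscle markers summed to 482 to 1180 FPKM, fibroblast markers to 697 to 1021 and mesothelial markers to 34.8 to 134, with none listed at 0. The part of these cell types in the values of Ptrf and Sdpr was not tested.

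Cav1 and Cav2 were highest in replicate 1, where 44.3% of detected genes were highest. Cav1 deviated by 0.07, -0.02 and -0.05 and Cav2 by 0.14, 0.12 and -0.26. The 9 adipocyte markers, all highest in replicate 1 and none listed at 0, had median deviations of 1.27, -0.64 and -0.48. Cav1 therefore moved far less between libraries than either the adipocyte or the endothelial markers did. Ehd2 deviated by -0.07, -0.10 and 0.17, Pacsin2 by -0.10, -0.14 and 0.25, and Prkcdbp by -0.00215, -0.11 and 0.11. These 3 genes were lowest in replicate 2 and highest in replicate 3, a course that 17.9% of detected genes had and that the median over all detected genes, at 0.04, -0.09 and 0.06, had too.

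**Figure D3:**
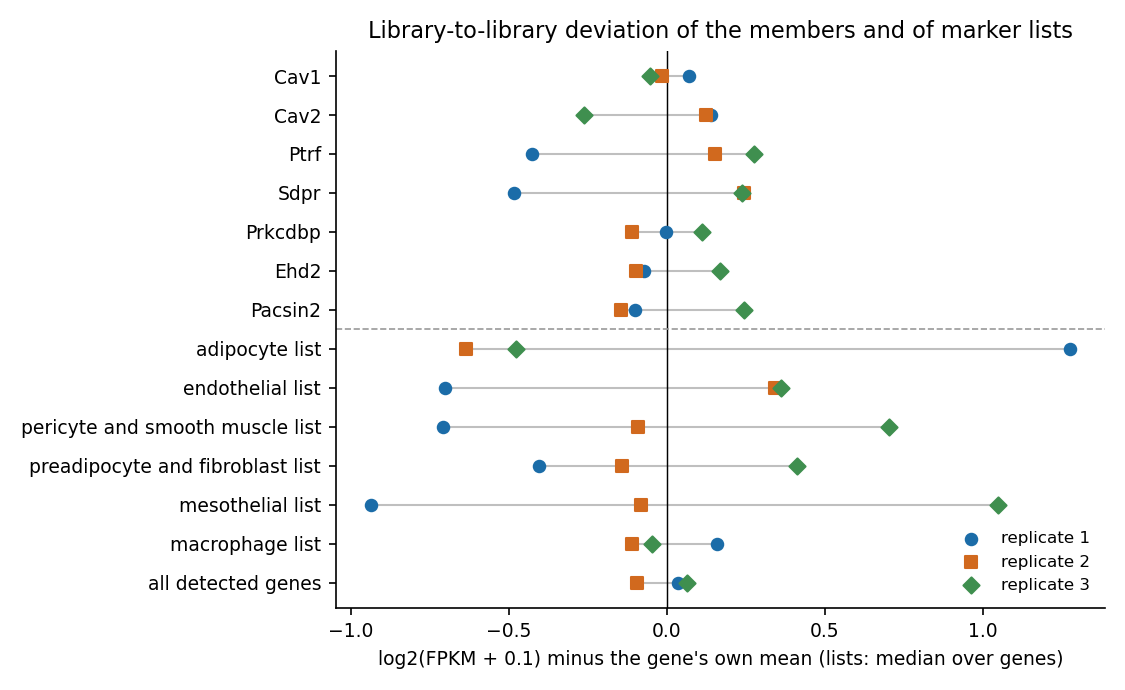
Deviation of each library from the gene's own mean on the log2(FPKM + 0.1) scale for the 7 detected genes (above the dashed line) and, as the median over genes, for 6 marker lists and all detected genes (below it); each point is 1 library. Ptrf and Sdpr lie at -0.43 and -0.48 in replicate 1, Cav1 deviates by at most 0.07, and the adipocyte list spans from -0.64 to 1.27.

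Genes whose values had the most similar course over the 3 libraries were looked for among all genes averaging FPKM 10 or more, by the root mean square difference of these deviations. With only 3 libraries many genes lie close to any profile. Within 0.1 log2 units there were 1059 of 5711 genes for Cav1, 1422 for Prkcdbp, 1337 for Ehd2, 860 for Pacsin2, 332 for Ptrf, 196 for Sdpr and 145 for Cav2. Nearest to Cav1 were Hspa2, Ppp2r2a and Gspt1, and nearest to Cav2 were Coa6, Ifi203 and Cxcl9. Nearest to Ptrf was the kinase gene Mapk3, at 114, 170 and 185 FPKM in replicates 1, 2 and 3, followed by Wwtr1 and Tbrg1. Nearest to Sdpr was Id1, at 129, 214 and 213 FPKM, followed by the VEGF receptor gene Flt1, at 48.2, 80.3 and 80.2 FPKM, and Lmo2. The nearest genes were Cd274, Vps33a and Stat3 for Prkcdbp, Sap130, Il1r1 and Ilf2 for Ehd2, and Noc2l, Anxa5 and Serf2 for Pacsin2. Among the 7 genes themselves the closest pairs were Prkcdbp with Ehd2, at 0.0521, Ehd2 with Pacsin2, at 0.0550, and Ptrf with Sdpr, at 0.0657. The most distant pair was Cav2 with Sdpr, at 0.467.

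Genes whose proteins bind caveolins or work in caveolae were nearly all detected. Of 25 such genes, 24 reached FPKM 1 in every library, against 45.5% of all genes. Over the 25 the median of the mean levels was 24.2 FPKM. That median was 234 FPKM over the 8 coat and neck genes and 10.4 over all detected genes. The highest was Cd36, the fatty acid transporter, at 1275, 2060 and 1535 FPKM in replicates 1, 2 and 3, above Cav1 in every library. Scarb1, a lipoprotein receptor, stood at 168 ± 23.7 FPKM and the ATPase gene Vcp at 130 ± 3.15. The amine oxidase gene Aoc3 stood at 199, 60.2 and 69.6 FPKM, highest in replicate 1. Lowest were Ror1, a receptor tyrosine kinase, at 0.844 ± 0.193 and the protein kinase C alpha gene Prkca at 1.36 ± 0.462. Of the 24 detected genes, 11 stayed within 1.5-fold across libraries, against 63.2% of all detected genes.

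Genes of the clathrin coat, the other main coat of plasma membrane pits, were lower than the leading caveola genes. All 13 were detected, against 45.5% of all genes, with a median of the mean levels of 51.8 FPKM. The highest was the light chain gene Clta at 188 ± 15.1 FPKM, followed by the assembly gene Picalm at 123 ± 9.98 and the adaptor gene Ap2s1 at 120 ± 11.5, and the lowest was Fcho2 at 14.9 ± 2.63. Cav1, Ptrf, Sdpr, Ehd2 and Prkcdbp thus had higher means than every clathrin coat gene listed, a difference that was not tested. Prkcdbp was above Clta in each library, but their ranges overlapped, at 182 to 212 and 178 to 205 FPKM. Cav2, at a mean of 131, and Pacsin2, at 33.9, were below Clta. Of the 13 genes, 11 stayed within 1.5-fold across libraries, against 63.2% of all detected genes.

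Promoter sequence was set beside the levels because the series concerns DNA methylation, which in mammals falls mainly on CpG dinucleotides. RefSeq windows of 300 bases, from 250 bases before to 50 after the transcription start (build GRCm38.p6), were matched for 7 of the 8 genes and 5 of the 6 paralogs, and Prkcdbp and Ehd1 were not matched. For all 7 the chosen start equalled the gene's outer end in the table. Methylation itself was not measured here. The windows of the highest caveolin and cavin, of the other caveolins, and of the CpG-poor Sdpr and the muscle cavin Murc are shown to set detected members of both families beside members that were not detected. They are chr6:17306085-17306384 (plus strand) for Cav1, chr6:17280935-17281234 (plus strand) for Cav2, chr6:112459255-112459554 (plus strand) for Cav3, chr11:100970568-100970867 (minus strand) for Ptrf, chr1:51288876-51289175 (plus strand) for Sdpr and chr4:48663264-48663563 (plus strand) for Murc. Each is given along the gene's strand from 5′ to 3′, with the CpG dinucleotides in capitals.
Cav1: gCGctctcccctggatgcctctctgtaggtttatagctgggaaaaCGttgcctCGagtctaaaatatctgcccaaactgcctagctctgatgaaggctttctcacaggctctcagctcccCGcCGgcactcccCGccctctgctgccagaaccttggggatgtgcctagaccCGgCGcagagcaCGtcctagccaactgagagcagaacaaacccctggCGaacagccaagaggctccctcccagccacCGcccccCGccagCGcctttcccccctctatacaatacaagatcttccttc
Cav2: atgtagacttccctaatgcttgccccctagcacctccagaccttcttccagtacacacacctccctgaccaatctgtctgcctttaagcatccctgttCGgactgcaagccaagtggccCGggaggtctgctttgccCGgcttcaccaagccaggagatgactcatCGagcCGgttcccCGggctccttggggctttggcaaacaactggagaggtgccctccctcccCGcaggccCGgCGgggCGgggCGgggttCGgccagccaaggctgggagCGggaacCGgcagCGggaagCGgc
Cav3: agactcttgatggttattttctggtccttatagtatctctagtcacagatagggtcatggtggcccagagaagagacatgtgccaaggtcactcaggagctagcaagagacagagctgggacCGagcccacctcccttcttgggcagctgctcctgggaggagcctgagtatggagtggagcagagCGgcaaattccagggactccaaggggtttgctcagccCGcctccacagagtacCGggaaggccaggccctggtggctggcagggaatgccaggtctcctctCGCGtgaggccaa
Ptrf: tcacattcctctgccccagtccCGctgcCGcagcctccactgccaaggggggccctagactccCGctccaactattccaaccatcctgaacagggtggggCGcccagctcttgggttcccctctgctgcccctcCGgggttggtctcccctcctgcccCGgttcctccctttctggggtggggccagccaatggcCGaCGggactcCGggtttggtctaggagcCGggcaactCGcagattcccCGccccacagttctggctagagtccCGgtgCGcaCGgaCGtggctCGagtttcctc
Sdpr: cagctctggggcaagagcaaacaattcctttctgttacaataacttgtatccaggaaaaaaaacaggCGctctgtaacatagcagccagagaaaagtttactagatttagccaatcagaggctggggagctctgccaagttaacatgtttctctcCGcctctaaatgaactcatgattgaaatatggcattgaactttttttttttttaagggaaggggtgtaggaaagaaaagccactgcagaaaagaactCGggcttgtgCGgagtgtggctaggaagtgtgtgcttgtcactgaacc
Murc: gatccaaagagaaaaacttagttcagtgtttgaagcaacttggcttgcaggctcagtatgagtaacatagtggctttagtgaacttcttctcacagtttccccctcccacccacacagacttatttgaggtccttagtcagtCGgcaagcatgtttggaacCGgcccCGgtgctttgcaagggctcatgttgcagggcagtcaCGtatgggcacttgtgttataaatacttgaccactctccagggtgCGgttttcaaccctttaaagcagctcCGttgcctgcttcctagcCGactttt

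The chosen windows of Cav1, Cav2 and Ptrf held 13, 16 and 17 CpG dinucleotides, and that of Cav3 held 6. Over 18051 genes matched to a window the median was 13. It was 21 for the 8821 genes detected in every library and 5 for the 9230 others. Cav1, Cav2 and Ptrf therefore lay below the median of detected genes and above that of the others. Sdpr, however, held only 4 CpG dinucleotides at a level of 308 FPKM, fewer than Cav3, listed at 0, and than Murc with 7. For the 443 matched genes at FPKM 100 or more in every library the median was 19. Of these genes 81.0% held 10 or more, so low counts also occur among high genes. Ehd2 held 18 and Pacsin2 27, the most among the chosen windows of the set. Windows at other RefSeq starts held 3 and 4 for Pacsin2, 16 for Cav1 and 18 for Ptrf. Which start was in use is not known, as FPKM was given per gene. Pacsin1 held 33 at a level of at most 0.241 FPKM in any library, but its matched start lay 29648 bases from the start in the table.

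**Figure D4:**
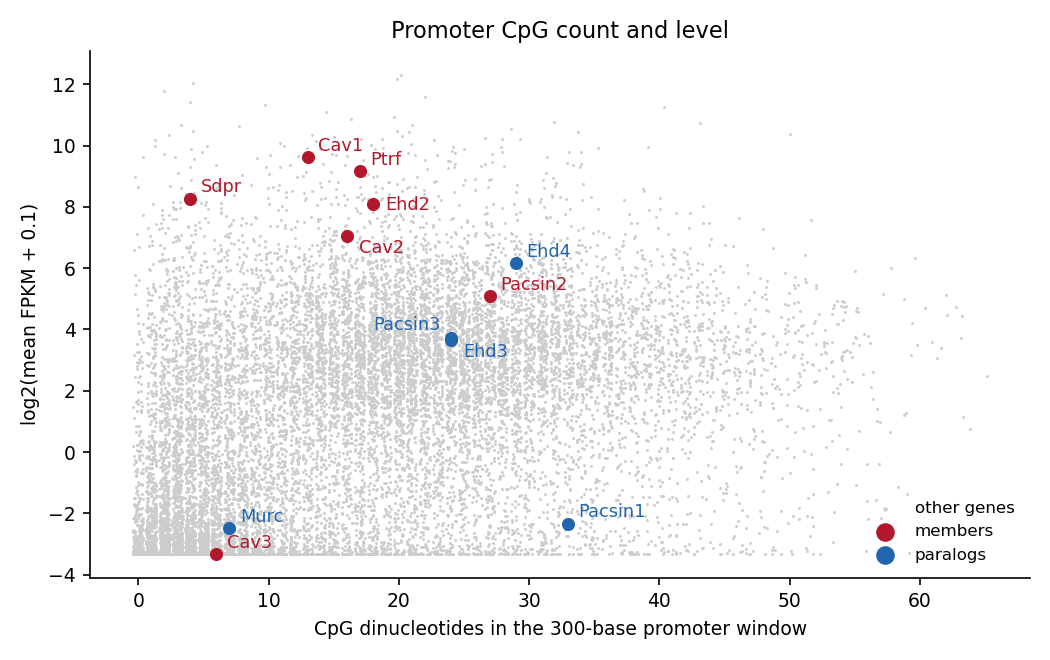
CpG dinucleotides in the 300-base promoter window (horizontal axis, points of other genes spread sideways a little) against log2(mean FPKM + 0.1) for 18051 genes in grey, the 7 matched genes of the set in red and 5 paralogs in blue. Sdpr, with 4 CpG dinucleotides, lies among the highest genes, while Pacsin1, with 33, lies below FPKM 1.

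The chosen windows were searched for 3 short motifs on both strands. The GC box GGGCGG was found for Cav1, Cav2, Ptrf, Ehd2 and Pacsin2 and not for Cav3 and Sdpr. Windows at other starts of Cav1 and Pacsin2 held no GC box, and that of Cav1 held none of the 3 motifs. Of the 5 matched paralogs the GC box was found for Ehd3, Ehd4, Pacsin3 and the undetected Pacsin1, and not for Murc. It was in 35.7% of all 32851 RefSeq promoter windows. Those windows, used for all 3 motifs, include other starts and undetected genes. No share was computed for the chosen windows of detected genes. In Cav2 the GC box occurred on the gene's strand beginning 9 and 4 bases before the start, with 1 base shared. In Cav1 it occurred on the opposite strand beginning 118 and 2 bases before the start. The GC box holds a CpG, so it is not independent of the CpG count. The letters CCAAT were found for Cav2, Ptrf, Sdpr, Ehd2 and Pacsin2 and the paralogs Ehd4 and Pacsin3, against 37.4% of all windows, and began 63 bases before the start in Ptrf. The letters TATAAA were in 13.6% of all windows. They were found for Murc, beginning 30 bases before the start on the gene's strand, and for Cav1, 221 bases before it on the opposite strand. A match is a description of letters and not of a factor's binding.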

How the data were processed

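RNA-seq libraries of wild-type adipocytes were analysed as 1 group of 3. The authors deposited FPKM values in a table with a column per library. The submitters' processing notes list featureCounts, Bismark 0.22.1 and Trim Galore 0.5.0, and as builds mm10 and GRCm38, but do not assign them to RNA or DNA. How FPKM was computed is not given in the sources used. Columns were matched to libraries by the sample descriptions. The table held 24889 rows after 1 emptied line. Rows whose symbol had turned into a date, 27 in all, were left out, and of the rows of 273 repeated symbols the highest by mean was used. Starts were counted from 1. Log2 values used log2(FPKM + 0.1), which understates ratios of low genes. A listed 0 can be a failed estimate. Pair ratios were tested with an exact sign-flip permutation, with Benjamini-Hochberg adjustment. These functions were tested on simulated data whose libraries differed far less than the real ones. That test checks the code and not how well it performs on these libraries.

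The members, lists and pairs were chosen with earlier results of these data known. By rule, all members and paralogs, the 5 highest and 2 lowest partners, the 3 highest and the lowest clathrin coat genes, genomic neighbours and the 3 nearest genes by course were named; some neighbours and the leading marker genes were left out for length, and 1 partner is not reported here. Symbols were matched to RefSeq for 24215 of 24330 genes. Promoter windows were those nearest the gene's outer end in the table. Motifs and the FPKM 100 level were chosen after the values were seen. Alternatives covered the pseudocount, the detection level, rescaling to TPM, division by the library median, filters, summed rows and leaving out each library. Python 3.11.15, numpy 2.4.6, pandas 2.3.3 and matplotlib 3.10.9 were used.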

Additional observations from a re-analysis of the deposited data

How the results depend on the processing

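All 14 pair ratios kept their sign under all 98 alternative values, but none of these alternatives could have reversed a sign. A changed pseudocount or a rescaling keeps the order of a pair within a library, and each gene had 1 row to sum. Leaving out a library cannot reverse a mean whose libraries all share 1 sign. No ratio could pass 0.05 under any alternative. The sizes of the ratios to Cav3, Murc and Pacsin1 are set by the pseudocount and are not given. Leaving out each library moved Cav1 over Ptrf between 0.24 and 0.65 and Sdpr over Prkcdbp between 0.43 and 0.85. The count of genes detected stayed at 7 in each alternative except at FPKM 100, an alternative chosen after seeing the data, where it was 6. The count within 1.5-fold was 5 under each scaling and without replicate 2, 7 without replicate 1 and 6 without replicate 3. Leaving out a library can only keep or raise this count. The share of all detected genes was not computed with a library left out, so these counts have no background. Rescaling to TPM raised the level of each detected gene, Cav1 to 1554. No paired analysis was possible because the RNA libraries form 1 group. Depth is unknown, so a 0 sets no upper limit.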
